A study of Pantherophis guttatus with 6 samples.

Results

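*TYR*, *TYRP1* and *DCT* are the 3 genes of the tyrosinase family, and they were taken from the count table by their exact gene names, 3 of the 25731 genes with a complete entry. Poly(A) RNA of dorsal skin was sequenced from 3 embryos homozygous for the hypomelanistic allele (mh/mh) and 3 wild-type (+/+) embryos of the corn snake, *Pantherophis guttatus*, all at embryonic day 40. The embryos came from 1 clutch of heterozygous parents. Genotypes were read at SNPs flanking the mapped interval, so the groups differ by descent in that stretch of the genome as a whole. The study places *TYR* inside this interval, whereas *TYRP1* and *DCT* lie on other scaffolds. The comparison asks whether hypomelanistic skin, which forms less melanin, differs in transcripts of the enzymes of melanin synthesis. The study names the sex of the embryos as the main source of differences among them, but the labels give no sex, so no term for it was fitted and its part in the spread between embryos was not tested.

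Tyrosinase, the product of *TYR*, is a copper enzyme of the melanosome that oxidises tyrosine to dopaquinone, the first and rate-limiting step of melanin synthesis. DCT, or dopachrome tautomerase, acts further down the pathway and converts dopachrome to the carboxylated indole DHICA. TYRP1 oxidises DHICA in the mouse and helps to keep tyrosinase stable there. The genes are transcribed in melanophores, the dark pigment cells of the skin, and respond to the transcription factor MITF in mammals.

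Total counts per library lay between 29958657 and 38541392, and 17025 genes had enough counts to be tested. Genes annotated or named as ribosomal RNA took 10.2% to 13.4% of the counts in hypomelanistic libraries and 7.37% to 8.80% in wild-type libraries. The 7 melanophore markers other than the enzymes were all detected, with a summed level of 1277 to 1403 CPM (read counts brought to a common library size) in hypomelanistic skin and 1267 to 1396 CPM in wild-type skin. The 6 fibroblast markers were all lower in hypomelanistic skin (median log2 fold change −0.20), although their summed levels overlapped. Iridophore markers summed to 65.7 to 87.4 CPM in hypomelanistic and 71.4 to 79.3 CPM in wild-type skin, with 2 higher and 2 lower (median 0.04). Xanthophore markers summed to 7.01 to 10.2 CPM in hypomelanistic and 9.62 to 12.3 CPM in wild-type skin, which overlapped. Of the 4 xanthophore markers 3 were lower and 1 higher (median −0.36), and 0 passed by edgeR. Of 8 keratinocyte markers 6 were tested, since no row of the table carries the name of the keratins *KRT5* or *KRT14*. In bulk skin, fewer melanophores and less RNA per melanophore cannot be told apart.

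*TYR* transcripts were lower in hypomelanistic skin, where wild-type skin held 7.48 times as many. The gene spans positions 3163719 to 3235830 on scaffold NW_026844016.1 (plus strand) of the CU assembly used by the authors, with 2425 bases of annotated exon in 7 blocks. It held 4.78, 5.13 and 5.01 CPM in hypomelanistic 1, 2 and 3, against 42.6, 34.5 and 34.5 CPM in wild-type 1, 2 and 3. The groups lay far apart, and every hypomelanistic embryo was low. The underlying counts were 164, 163 and 185 in hypomelanistic libraries and 1478, 1070 and 1156 in wild-type libraries. The hypomelanistic mean was 4.97 ± 0.178 CPM (SD, n = 3), or 13.4% of the wild-type mean of 37.2 ± 4.66 CPM (SD, n = 3). This gave a log2 fold change of −2.90 ± 0.115 (SE), with a 95% interval of −3.17 to −2.63, which as a fold puts wild-type 6.21 to 9.02 times higher. The edgeR adjusted p was 0.000415, the smallest of all tested genes. *TYR* was the 1 gene of the 3 that edgeR called at an adjusted p of 0.05, beside 0.0235% of all tested genes, and the 1 gene of the 3 whose groups did not overlap with hypomelanistic embryos lower, beside 6.39%. Only 7 of the tested genes had a steeper estimated fall.

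**Figure D1:**
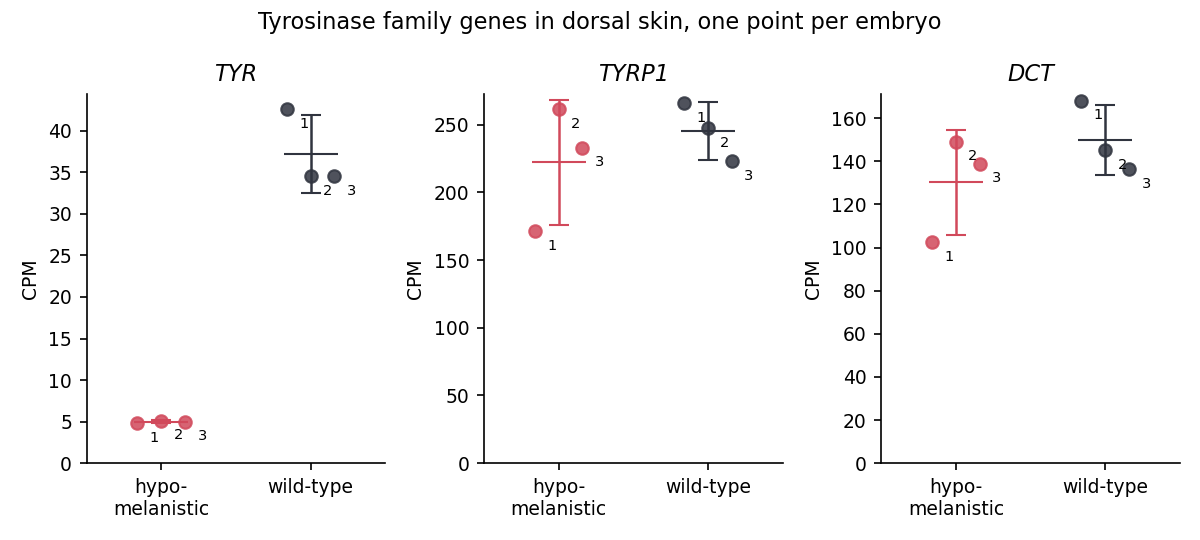
CPM of *TYR*, *TYRP1* and *DCT* in each embryo (points, numbered by replicate), with the mean and SD of each genotype; each panel has its own axis from 0. The hypomelanistic *TYR* values sit between 4.78 and 5.13 CPM, below wild-type values of 34.5 to 42.6 CPM, while the groups overlap for *TYRP1* and *DCT*.

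The coefficient of variation of *TYR* was 3.57% in hypomelanistic embryos and 12.5% in wild-type embryos. Counting error alone amounts to 7.35% to 7.83% of the value in a hypomelanistic library and 2.60% to 3.06% in a wild-type library. Differences between the hypomelanistic embryos were thus not detectable at this depth, and the wild-type spread rests on wild-type 1, since wild-type 2 and 3 held nearly equal levels.

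*TYRP1* did not pass the test. The gene spans positions 32576641 to 32599210 on the minus strand of scaffold NW_026844028.1, with 6770 bases of exon in 8 blocks, of which the longest makes up 76.6%. It held 172, 262 and 233 CPM in hypomelanistic 1, 2 and 3, against 266, 247 and 223 CPM in wild-type 1, 2 and 3. The groups overlapped, and hypomelanistic 1 was the lowest of the 6 libraries. The means were 222 ± 46.1 CPM in hypomelanistic and 245 ± 21.5 CPM in wild-type embryos (SD, n = 3 each). By edgeR the log2 fold change of −0.14 ± 0.154 (SE) had an adjusted p of 0.878. Its 95% interval, from −0.50 to 0.22, corresponds to 0.705 to 1.16 times the wild-type level and does not reach the interval of *TYR*. Without hypomelanistic 1 the estimate was 0.012.

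*DCT* did not pass either. The gene spans positions 23924311 to 23954575 on the minus strand of scaffold NW_026844017.1, with 4861 bases of exon in 10 blocks. It held 102, 149 and 139 CPM in hypomelanistic 1, 2 and 3, against 168, 145 and 136 CPM in wild-type 1, 2 and 3. Here too the groups overlapped and hypomelanistic 1 was lowest. The means were 130 ± 24.6 CPM in hypomelanistic and 150 ± 16.4 CPM in wild-type embryos (SD, n = 3 each). By edgeR the log2 fold change of −0.20 ± 0.148 (SE) had an adjusted p of 0.830 and a 95% interval of −0.55 to 0.14, or 0.682 to 1.10 times the wild-type level. Without hypomelanistic 1 the estimate was −0.058. DESeq2, which called 0.475% of the genes it adjusted, gave the same picture, with an adjusted p of 6.70e-84 for *TYR* and 0.999 for *TYRP1* and *DCT*.

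**Figure D2:**
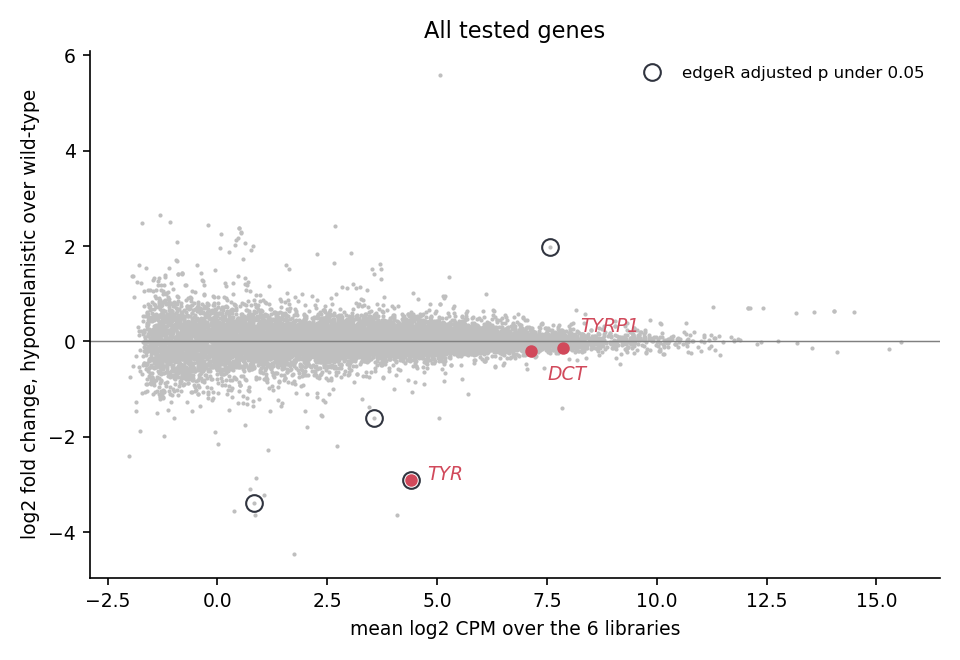
Log2 fold change of hypomelanistic over wild-type skin (y axis) against mean log2 CPM over the 6 libraries (x axis) for the 17025 tested genes (grey), with the enzyme genes in red and the 4 genes called by edgeR circled. *TYR* lies at −2.90, while *TYRP1* at −0.14 and *DCT* at −0.20 lie within the cloud of tested genes.

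Ratios within a library do not depend on its size, and they set *TYR* apart from both relatives in every embryo. *TYRP1* counts were 35.9, 51.0 and 46.6 times those of *TYR* in hypomelanistic 1, 2 and 3, against 6.24, 7.17 and 6.45 times in wild-type 1, 2 and 3. *DCT* counts were 21.4, 29.1 and 27.7 times those of *TYR* in hypomelanistic 1, 2 and 3, against 3.95, 4.21 and 3.95 times in wild-type 1, 2 and 3. No hypomelanistic ratio came near the wild-type range for either pair. On the log2 scale the *TYR*/*TYRP1* ratio averaged −5.46 ± 0.263 in hypomelanistic and −2.72 ± 0.104 in wild-type embryos (SD, n = 3 each), a difference of −2.73. The *TYR*/*DCT* ratio averaged −4.69 ± 0.237 in hypomelanistic and −2.01 ± 0.0533 in wild-type embryos (SD, n = 3 each), a difference of −2.68. The exact two-sided permutation test gave p = 0.1 for both, the smallest value that 3 against 3 libraries allow, and 0.15 after adjustment over the 6 ratios and relative levels tested.

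The ratio between *TYRP1* and *DCT* was close to constant over the embryos. *TYRP1* counts were 1.67, 1.76 and 1.68 times those of *DCT* in hypomelanistic 1, 2 and 3, against 1.58, 1.70 and 1.64 times in wild-type 1, 2 and 3. The ranges overlapped, and the log2 ratio differed by 0.055 between genotypes (exact permutation p = 0.3, adjusted 0.36). Hypomelanistic 1, the lowest library for both genes, thus held them in the same proportion as the other embryos.

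**Figure D3:**
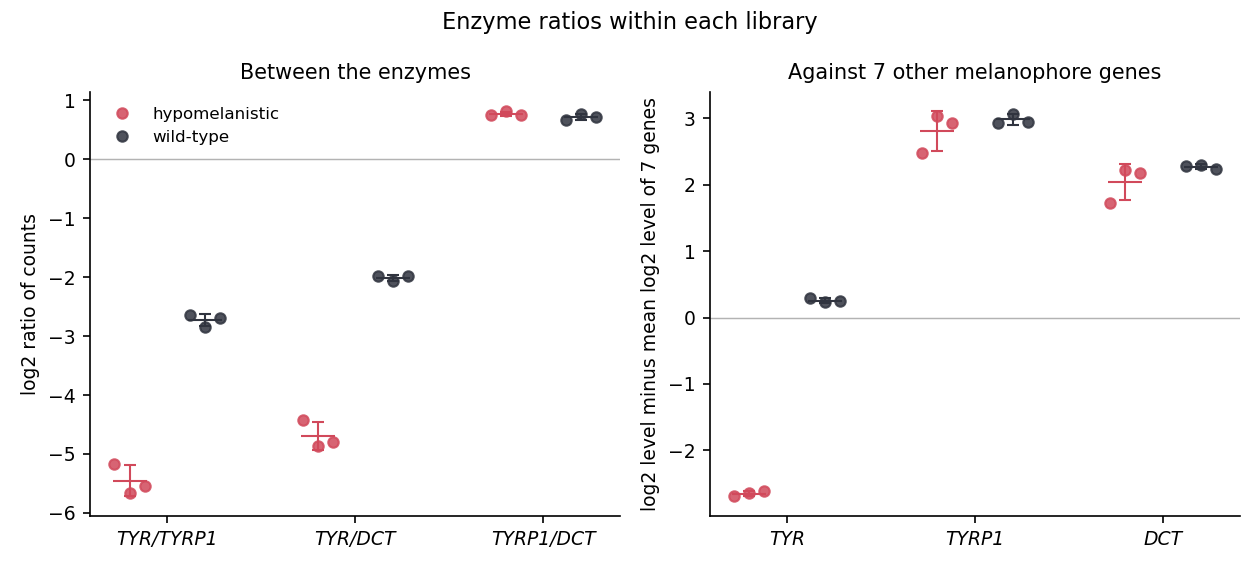
Left, log2 ratios of counts between the enzymes in each library; right, log2 count of each enzyme minus the mean log2 count of 7 other melanophore genes in the same library (points are embryos, bars the mean and SD per genotype). Both ratios with *TYR* and the relative level of *TYR* differ by −2.90 to −2.68 between genotypes, while *TYRP1*/*DCT* differs by 0.055.

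Measured against other melanophore genes of the same library, the fall of *TYR* was as large. The 7 genes were *PMEL*, which forms the fibrils of the melanosome, *MLANA*, a partner in PMEL maturation, the transport proteins *OCA2*, *SLC45A2* and *SLC24A5*, the melanosomal receptor *GPR143* and the cation channel *TRPM1*. The log2 count of *TYR* relative to their mean was −2.69, −2.64 and −2.61 in hypomelanistic 1, 2 and 3, against 0.29, 0.23 and 0.25 in wild-type 1, 2 and 3. Within each genotype these values spanned less than 0.1, and the difference between genotypes was −2.90 (exact permutation p = 0.1). *TYRP1* relative to the same genes was 2.47, 3.03 and 2.92 in hypomelanistic 1, 2 and 3, against 2.93, 3.07 and 2.94 in wild-type 1, 2 and 3, with overlap and a difference of −0.17 (exact permutation p = 0.4). *DCT* was 1.73, 2.22 and 2.18 in hypomelanistic 1, 2 and 3, against 2.27, 2.30 and 2.23 in wild-type 1, 2 and 3. These *DCT* groups were separated by 0.011 only and differed by −0.23 (exact permutation p = 0.1), or by −0.071 without hypomelanistic 1 (exact permutation p = 0.2).

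Levels of different genes were compared per kilobase of annotated exon. In hypomelanistic embryos the order was *TYRP1* (32.8 ± 6.81 CPM per kilobase), *DCT* (26.8 ± 5.05) and *TYR* (2.05 ± 0.0733), against 36.2 ± 3.18, 30.8 ± 3.38 and 15.3 ± 1.92 for the same genes in wild-type embryos (SD, n = 3 each). *TYRP1* and *DCT* overlapped across embryos in either genotype, although *TYRP1* was the higher of the pair within each of the 6 libraries. *TYR* was the lowest of the family in both genotypes, without overlap. Among tested genes, the per-kilobase level of *TYR* stood at percentile 32.8 in hypomelanistic and 80.4 in wild-type skin. *TYRP1* stood at percentile 90.9 in hypomelanistic and 92.1 in wild-type skin, and *DCT* at 88.8 in hypomelanistic and 90.5 in wild-type skin. These per-kilobase levels rest on the annotated exon length, most of which is a single block in *TYRP1* and *DCT*.

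The family as a whole changed in composition. *TYR* gave 1.71% (95% Wilson interval 1.47% to 1.99%), 1.23% (1.06% to 1.44%) and 1.33% (1.15% to 1.53%) of the counts of the family in hypomelanistic 1, 2 and 3. In wild-type 1, 2 and 3 it gave 8.94% (8.51% to 9.38%), 8.08% (7.63% to 8.56%) and 8.77% (8.30% to 9.27%). The intervals, which cover counting error only, did not meet between genotypes. Per kilobase, *TYR* made up 3.40% ± 0.591 of the family in hypomelanistic and 18.6% ± 0.835 in wild-type embryos (SD, n = 3 each). The sum over the family was 357 ± 70.8 CPM in hypomelanistic and 433 ± 41.7 CPM in wild-type embryos, and the part from *TYRP1* and *DCT* was 352 ± 70.6 CPM in hypomelanistic and 395 ± 37.4 CPM in wild-type embryos (SD, n = 3 each).

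*TYRP1* and *DCT* varied together across the 6 embryos. Their log2 CPM had a Pearson r of 0.977 (exact permutation p = 0.00139, n = 6) and a Spearman rho of 1.00 (exact permutation p = 0.00278, n = 6). This was the only pair tested for correlation, chosen with earlier results of these data known, and the p-values are not adjusted. The test shuffles all 6 embryos, so it cannot tell a link particular to this pair from differences between libraries that other genes share. Without the libraries farthest from the median of *TYRP1*, hypomelanistic 1 and wild-type 1, r was 0.994 over 4 embryos. Each genotype holds too few embryos for a value of its own. No correlation is given for *TYR*, whose values form separate clusters by genotype. Among the 15117 other tested genes with a mean of at least 1 CPM, *DCT* ranked 9 by likeness to *TYRP1*, and *TYRP1* ranked 8 by likeness to *DCT*.

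The order of the embryos in *TYRP1* and *DCT* was partly shared by skeletal muscle markers and by summed melanophore markers. The summed level of 5 tested markers of muscle (*TTN*, *ACTA1*, *MYOD1*, *MYOG* and *DES*) was 457, 1805 and 1161 CPM in hypomelanistic 1, 2 and 3, against 1240, 2146 and 550 CPM in wild-type 1, 2 and 3. Hypomelanistic 1 was the lowest library for muscle markers, *TYRP1* and *DCT* alike. Wild-type 3 was the next lowest for all of them. The part of muscle or melanophore content in the values of *TYRP1* and *DCT* was not tested. Summed melanophore markers stayed between −0.078 and 0.070 of their mean over the libraries on the log2 scale. Within this narrow range they were lowest in wild-type 3 (−0.078) and hypomelanistic 1 (−0.067). They were highest in hypomelanistic 2 (0.070) and wild-type 1 (0.062), also the highest libraries for *TYRP1* and *DCT*. *PMEL* gave most of that sum, with 1163 CPM in hypomelanistic and 1179 CPM in wild-type embryos. Lower markers varied more, such as *TRPM1* between 3.40 and 6.28 CPM over the libraries.

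**Figure D4:**
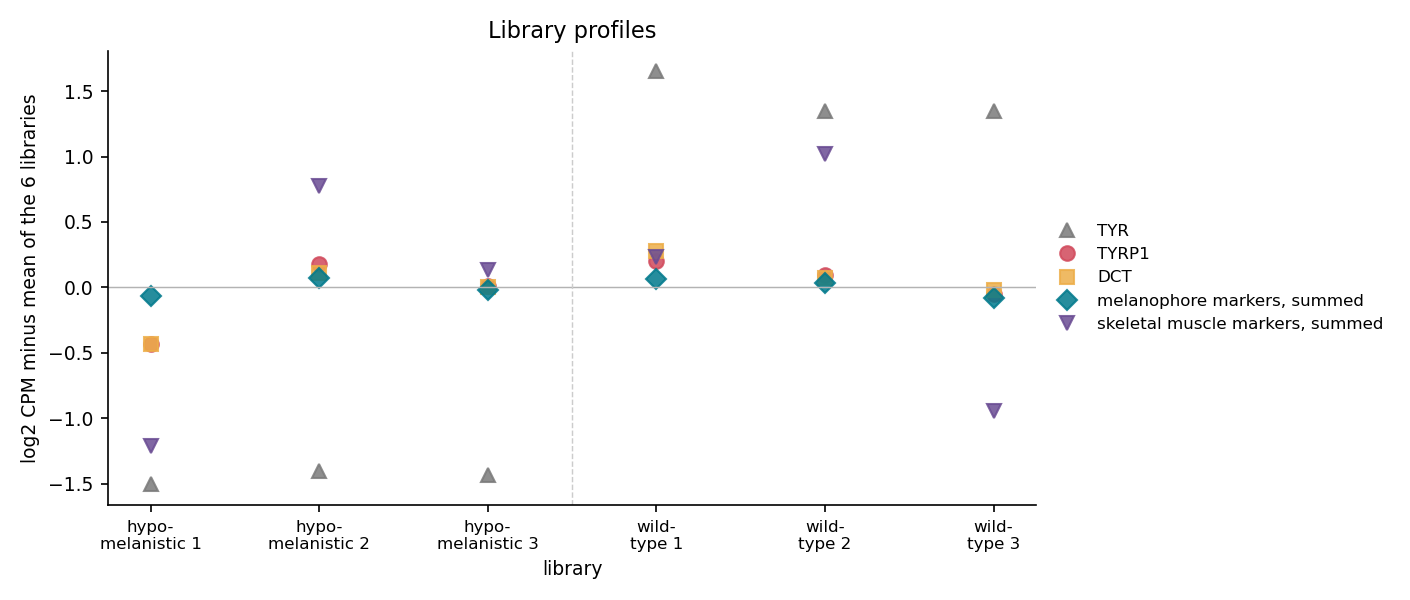
Log2 CPM of each enzyme gene, and of the summed melanophore and skeletal muscle markers, minus the mean over the 6 libraries (y axis), for each library (x axis). *TYRP1* and *DCT* lie at −0.43 and −0.44 in hypomelanistic 1, where muscle markers lie at −1.21 and melanophore markers at −0.067, while *TYR* separates by genotype.

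The genes whose pattern over the libraries was most like that of *TYRP1* were *CEFIP-like* (LOC132710429, r = 0.993), named after a protein of the Z-disc of striated muscle, *SPIRE2* (r = 0.991), an actin nucleator that works in melanosome transport in the mouse, *CIPC* (r = 0.990), a repressor in the circadian clock, *FBF1-like* (LOC132711665, r = 0.983) and *MTHFSD* (r = 0.981). For *DCT* they were *MTHFSD* (r = 0.989), *ARAP2* (r = 0.985), *AGK* (r = 0.983), a lipid kinase of mitochondria, *ALDH18A1* (r = 0.983), an enzyme of proline synthesis, and *ZSCAN2-like* (LOC132710896, r = 0.980). The melanophore markers were not uniformly alike. *PMEL* had an r of 0.816 with *TYRP1* and 0.749 with *DCT*, and *GPR143* had 0.689 with *TYRP1* and 0.750 with *DCT*. *OCA2* had 0.477 with *TYRP1* and 0.468 with *DCT*, and *SLC45A2* had 0.245 with *TYRP1* and 0.195 with *DCT*. *MLANA* had 0.128 with *TYRP1* and 0.0905 with *DCT*, and *SLC24A5* had −0.023 with *TYRP1* and 0.040 with *DCT*. *TRPM1* had −0.334 with *TYRP1* and −0.184 with *DCT*. These are Pearson values over 6 libraries, given as a description of likeness with no test. *CEFIP-like* lay close to the cut of 1 CPM, so its r rests on few reads. It held 0.923 ± 0.749 CPM in hypomelanistic and 1.10 ± 0.352 CPM in wild-type embryos (SD, n = 3 each).

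For *TYR*, the 5 most alike genes were all lower in hypomelanistic embryos without overlap, since the pattern is the contrast of the genotypes itself. They were *NAALAD2-like* (LOC117660188), annotated as a peptidase, at 5.82 ± 0.189 CPM in hypomelanistic and 17.8 ± 0.410 CPM in wild-type embryos, and *BACE2*, the protease that processes PMEL, at 66.1 ± 0.893 CPM in hypomelanistic and 94.0 ± 0.355 CPM in wild-type embryos. *DDX10*, an RNA helicase, held 13.8 ± 0.625 CPM in hypomelanistic and 20.7 ± 0.311 CPM in wild-type embryos. *SMC2*, a condensin subunit, held 22.0 ± 0.0966 CPM in hypomelanistic and 25.2 ± 0.455 CPM in wild-type embryos. *MMP3-like* (LOC117664145), named after a matrix metalloproteinase, held 0.192 ± 0.0771 CPM in hypomelanistic and 2.30 ± 0.784 CPM in wild-type embryos (SD, n = 3 each). Its hypomelanistic values rest on few reads. Only *NAALAD2-like* passed by edgeR (adjusted p 0.00286). The edgeR adjusted p was 0.0674 for *BACE2*, 0.171 for *DDX10*, 0.828 for *SMC2* and 0.114 for *MMP3-like*. Of these 5 genes, *NAALAD2-like*, *DDX10* and *MMP3-like* lie on the scaffold of *TYR*, which holds 2.18% of the genes compared. *NAALAD2-like* begins at position 3489819, close to *TYR*, whereas *MMP3-like* begins at 9963003 and *DDX10* at 12838034, much farther along. The part of position on the scaffold in these likenesses was not tested.

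No annotated gene overlaps *TYR*, *TYRP1* or *DCT*, on either strand. *NOX4*, which begins 21036 bases from the end of *TYR* and encodes an NADPH oxidase, averaged 0.545 CPM in hypomelanistic and 0.492 CPM in wild-type embryos, with a log2 fold change of 0.15 ± 0.345. *GRM5*, a glutamate receptor gene 63079 bases from *TYR* on the other side, held 10, 1 and 2 counts in hypomelanistic 1, 2 and 3, against 1, 2 and 3 counts in wild-type 1, 2 and 3, too few to be tested. Beyond *GRM5*, 419461 bases from *TYR*, *CTSC*, which encodes the protease cathepsin C, held 18.2, 21.7 and 20.7 CPM in hypomelanistic 1, 2 and 3, against 31.0, 29.9 and 33.1 CPM in wild-type 1, 2 and 3. The groups did not overlap, and the log2 fold change of −0.63 ± 0.092 had an adjusted p of 0.207 by edgeR and 4.85e-05 by DESeq2. On the side of *NOX4*, *NAALAD2-like* (LOC117660188) at positions 3489819 to 3553645 was lower in hypomelanistic embryos, by −1.61 on the log2 scale (edgeR adjusted p 0.00286). *CTSC*, singled out after its values were seen, was thus past the threshold by DESeq2 only and *NAALAD2-like* by edgeR and DESeq2, each with smaller changes than *TYR*. The study places *NOX4*, *CTSC* and *NAALAD2-like* in the mapped interval with *TYR*. *LURAP1L*, 19775 bases from *TYRP1*, had a log2 fold change of 0.18 ± 0.265, and the gene on the other side of *TYRP1* (LOC117661979) held at most 4 counts in a library. *GPC6*, a glypican gene that ends 2258 bases from *DCT* on the opposite strand, had a log2 fold change of 0.09 ± 0.063, and beyond a transfer RNA gene with 0 counts on the other side *TGDS* had 0.03 ± 0.120. In a newer assembly of the species, *TYR* and *DCT* lie on the same chromosome and *TYRP1* on another.

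No gene in the lists of related pathway genes fell as steeply as *TYR*. Over 7 lists with 77 tested genes, hypomelanistic embryos had 35 higher and 42 lower, and the median log2 fold change was −0.01, beside 0.00 over all tested genes. Single genes ranged from −0.51 (*BACE2*) to 1.85 (*DDT-like*, LOC117677954). By edgeR 0 of the 77 passed, beside 0.0235% of all tested genes. By DESeq2 2 passed, *BACE2* and *DDT-like*, beside 0.475% of the genes it adjusted. At an unadjusted edgeR p under 0.05 there were 7, beside 958 of the 17025 tested genes. Groups did not overlap, with hypomelanistic embryos lower, for 6 of the 77, beside the 6.39% of all tested genes.

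Of 9 genes for melanosome channels, pH and copper supply, 5 were higher and 4 lower (median log2 fold change 0.03), and 0 passed by edgeR or DESeq2, with 1 at an unadjusted edgeR p under 0.05. Tyrosinase needs copper, and *ATP7A*, the pump that loads it, averaged 45.3 CPM in hypomelanistic and 46.2 CPM in wild-type embryos (log2 fold change −0.03 ± 0.085). *OCA2* and *SLC45A2*, which set the pH in which tyrosinase works, had log2 fold changes of 0.03 ± 0.140 and 0.12 ± 0.197. *SLC24A5*, a cation exchanger, had 0.13 ± 0.150, *TRPM1* −0.09 ± 0.227 and *GPR143* −0.18 ± 0.132.

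Of 6 genes of the melanosome matrix and other melanosomal proteins, 4 were higher and 2 lower (median 0.04). *PMEL* averaged 1163 CPM in hypomelanistic and 1179 CPM in wild-type embryos (log2 fold change −0.02 ± 0.079), and *MLANA* 95.1 CPM in hypomelanistic and 86.4 CPM in wild-type embryos (0.14 ± 0.092). DESeq2 called 1 gene of this list, *BACE2* (adjusted p 1.59e-09, log2 fold change −0.51 ± 0.052), which missed the threshold by edgeR with an adjusted p of 0.0674.

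Of 26 genes that carry the enzymes to the melanosome, 11 were higher and 15 lower (median −0.02), and 0 passed by edgeR or DESeq2, with 1 at an unadjusted edgeR p under 0.05. *RAB38* and *RAB32* are small GTPases that direct tyrosinase and TYRP1 to melanosomes. *RAB38* lies on the scaffold of *TYR*, and the study places both genes in the mapped interval that sets the genotypes apart. *RAB38* held 4.28, 4.37 and 4.03 CPM in hypomelanistic 1, 2 and 3, against 5.88, 5.32 and 5.20 CPM in wild-type 1, 2 and 3. The groups did not overlap, and the log2 fold change of −0.37 ± 0.131 had an edgeR adjusted p of 0.828. *RAB32* had a log2 fold change of 0.11 ± 0.132.

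Of 16 regulators of the enzyme genes, 4 were higher and 12 lower (median −0.08), and 0 passed by edgeR or DESeq2, with 2 at an unadjusted edgeR p under 0.05. *MITF* averaged 28.5 CPM in hypomelanistic and 29.5 CPM in wild-type embryos (log2 fold change −0.05 ± 0.133). *SOX10*, which acts with MITF on pigment genes, had a log2 fold change of −0.03 ± 0.060, and *KIT*, a receptor of melanophore precursors, −0.11 ± 0.129. *ASIP*, an antagonist of the melanocortin receptor, averaged 47.1 CPM in hypomelanistic and 53.3 CPM in wild-type embryos (−0.18 ± 0.148). *MC1R*, the receptor itself, held 1, 3 and 1 counts in hypomelanistic 1, 2 and 3, against 0, 1 and 0 counts in wild-type 1, 2 and 3, and could not be tested at this depth.

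Of 10 genes for folding and quality control of glycoproteins, through which the enzymes mature, 4 were higher and 6 lower (median −0.03), and of 8 genes of tyrosine and cofactor supply 5 were higher and 3 lower (median 0.07). In these lists 0 genes passed by edgeR or DESeq2, with 1 and 0 of them at an unadjusted edgeR p under 0.05. Of the tautomerases, both tested genes were higher, and DESeq2 called 1 of them, the *DDT-like* gene (LOC117677954), named after D-dopachrome tautomerase. It held 5.68, 16.8 and 15.7 CPM in hypomelanistic 1, 2 and 3, against 3.08, 3.26 and 4.27 CPM in wild-type 1, 2 and 3, without overlap. Its log2 fold change was 1.85 ± 0.397, with an adjusted p of 0.629 by edgeR and 0.00043 by DESeq2.

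**Figure D5:**
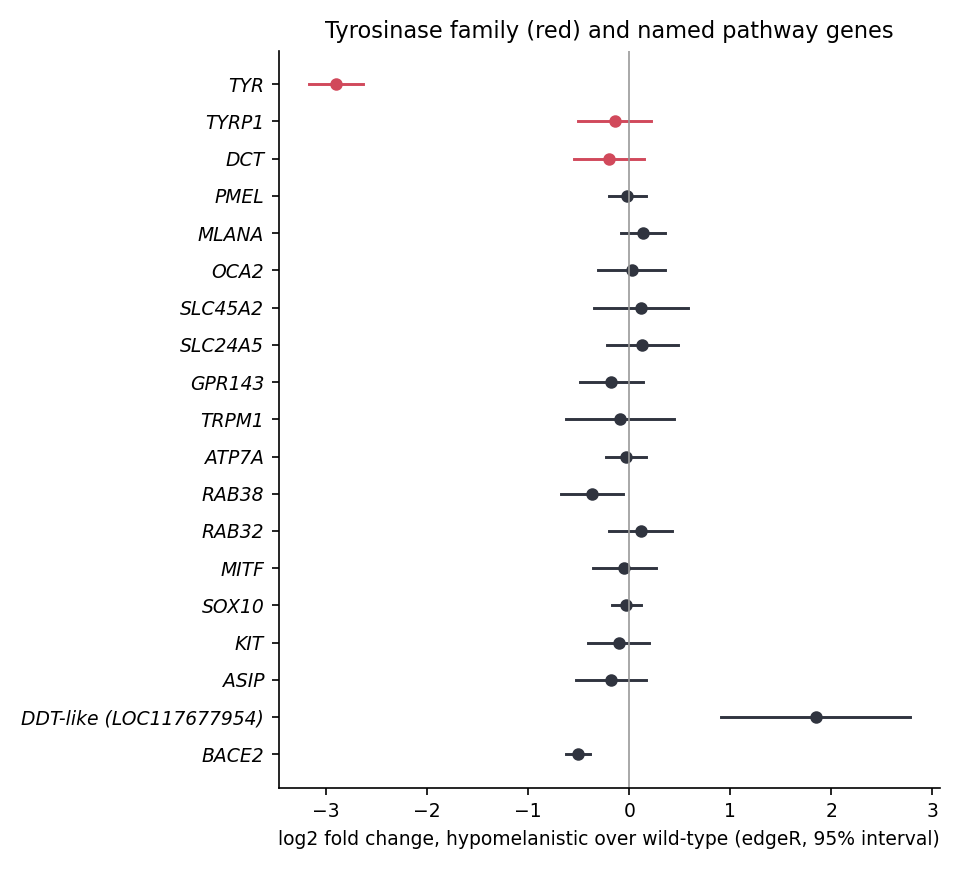
Log2 fold change of hypomelanistic over wild-type skin with its 95% interval (edgeR) for the enzyme genes (red) and the named genes of the lists (black). The interval of *TYR*, −3.17 to −2.63, does not reach that of any other gene shown, and those of *TYRP1* and *DCT* include 0.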

How the data were processed

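The table deposited by the authors holds raw counts of read pairs per gene with no normalization. Stranded poly(A) libraries had been aligned with STAR 2.7.10b to the CU assembly, and featureCounts (Subread 2.0.6) had counted the uniquely mapping pairs. Whether strand was used in counting is not given.

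Of 25735 lines, 4 were broken (*DST* and *MACF1*) and left out. Counts were scaled by TMM after filterByExpr and tested with edgeR 4.0.16 (quasi-likelihood, genotype only) run in R 4.3.3, and p-values were adjusted by Benjamini-Hochberg over 17025 genes, with 0.05 as the threshold. The SE is the estimate over the root of its F statistic, and intervals use the t quantile. The alternatives were DESeq2 1.42.0, limma-voom (limma 3.58.1), DESeq2 size factors, no filter, ribosomal RNA genes left out, a replicate block and leaving out each library. Ratios within a library were log2 ratios of counts plus 0.5, compared between genotypes by an exact two-sided permutation test over all 20 assignments, with no pseudocount and counts per kilobase as further alternatives. Wilson intervals of shares cover counting error only. Likeness was Pearson's r of log2 CPM (prior count 2).

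The members, gene lists and tests were chosen with earlier results of these data known. Named are the enzymes, a fixed set of list genes, list members past the threshold by either tool, adjacent genes and the 5 most alike genes per enzyme. Of 84 listed names, 79 were found by exact name. The values of 1 listed gene are not reported here. A newer RefSeq assembly of the species was used only to find ribosomal RNA genes and the chromosomes of the enzymes.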

Additional observations from a re-analysis of the deposited data

How the results depend on the processing

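The fall of *TYR* kept its direction and stayed past the threshold under all 12 alternatives, DESeq2 and limma-voom included, with log2 fold changes of −2.95 to −2.79 and adjusted p-values up to 0.0401. *TYRP1* and *DCT* passed under none of theirs. Leaving out each library in turn gave −0.28 to 0.012 for *TYRP1*, which changed sign without hypomelanistic 1 only, and −0.31 to −0.058 for *DCT*. Differences in ratios and relative levels kept direction under all 9 alternatives, although *TYRP1* relative to melanophore genes differed by only −0.0041 without hypomelanistic 1. Counts per kilobase and the replicate block cannot change these differences, so they are no check on them. The other alternatives gave −2.88 to −2.63 for *TYR*/*TYRP1*, −2.81 to −2.59 for *TYR*/*DCT* and −2.92 to −2.88 for *TYR* relative to melanophore genes. The number of genes past the threshold, 4 in the edgeR test, was 85 by DESeq2, 1 with the replicate block and 2 to 10 when a library was left out (10 without hypomelanistic 1, 2 when wild-type 2 or 3 was left out). The cause was not tested. *TYR* was the gene left with the replicate block (log2 fold change −2.90). The labels state no pairing of same-numbered embryos. Their deviations from the genotype means had r of −0.084, 0.113 and −0.0059 over genes for numbers 1, 2 and 3. Embryos of unlike number gave r of −0.121 to 0.102, a similar range. These few values alone cannot decide whether the numbers pair embryos. With 3 embryos per genotype, exact permutation tests between genotypes cannot go below 0.1. The 95% intervals of *TYRP1* and *DCT* given above are not adjusted for the number of genes, and changes within them were not excluded. They are no limit of detection, since larger changes also missed the edgeR threshold. *CTSC*, for example, had −0.63 ± 0.092 (SE) with an edgeR adjusted p of 0.207.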
